A study of Mus musculus with 24 samples.

Results

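The E2F factors and the pocket proteins were followed in mouse control cells and in cells depleted of MOF, the histone H4 acetyltransferase encoded by Kat8 (Mof). The members were the 10 genes E2f1 to E2f8, Rb1 and Rbl1, matched by symbol in the comparison tables deposited by the authors. All 10 were found among the 43626 genes of each table of mouse embryonic fibroblasts (MEFs). In the tables of MPC5 podocytes, a line of mouse glomerular epithelial cells, 7 members were found among 9578 genes with Adriamycin and 2 among 1990 genes with vehicle. Both podocyte tables stop at an adjusted p of 0.05, so an absent member either did not pass that threshold or was not tested.

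RNA was measured in 24 samples that formed 8 groups of 3. Adriamycin, also called doxorubicin, traps topoisomerase II on DNA and so causes breaks. The MEF groups, all at passage 2, were Mof knockout and wild type with 0.1 µg/ml Adriamycin for 24 h, and Mof knockout and wild type with vehicle (DMSO). The podocyte groups, all differentiated and at passage 20, were Mof knockdown and scramble with 0.25 µg/ml Adriamycin for 24 h, and Mof knockdown and scramble with vehicle. How Mof was deleted in MEFs, by which construct it was knocked down in podocytes, and whether the samples of a group were separate cultures are not given in the sources used here, so each p-value reflects how far these samples spread, which can be technical. Each table sets the 3 Mof-depleted samples against the 3 controls of 1 cell type and drug condition. It gives a mean normalized count over both groups, a log2 fold change with its standard error (SE), and an adjusted p (DESeq2, as run by the authors). No value per sample is given, so the depth of each library and the overlap of the groups are unknown.

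E2F proteins bind the promoters of genes needed to enter and pass through S phase. E2F1, E2F2 and E2F3 mainly activate these genes, E2F4 and E2F5 mainly repress them with pocket proteins, E2F6 represses with Polycomb proteins and needs no pocket protein, and E2F7 and E2F8 are atypical repressors that bind DNA without a DP partner. The pocket proteins pRB (Rb1), p107 (Rbl1) and p130 (Rbl2) hold E2F factors inactive until cyclin-dependent kinases phosphorylate them. Several of these genes are known E2F targets themselves, among them E2f1, E2f2, E2f7, E2f8 and Rbl1, so their mRNA levels vary through the cell cycle. In bulk RNA a lower share of cycling cells and less RNA per cell cannot be told apart.

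In GRCm38 (GENCODE M21) E2f7 (ENSMUSG00000020185) spans chr10:110745439-110787384 on the plus strand, E2f8 (ENSMUSG00000046179) chr7:48866429-48881596 on the minus strand and Rb1 (ENSMUSG00000022105) chr14:73183673-73325822 on the minus strand. E2f8 shares 610 exon bases with Gm2788 on the other strand, a transcript with mean counts of 0.821 with Adriamycin and 6.38 with vehicle in the authors' deposited tables of MEFs.

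RefSeq promoter windows (GRCm38.p6, 250 bases before to 50 after the start) were matched for 7 of the 10 members, namely E2f1, E2f2, E2f3, E2f6, E2f7, E2f8 and Rbl1. The 4 printed here belong to members that fell together in knockout MEFs under vehicle: E2f2 at chr4:136172024-136172323 (plus strand), E2f7 at chr10:110745189-110745488 (plus strand), E2f8 at chr7:48881547-48881846 (minus strand) and Rbl1 at chr2:157204485-157204784 (minus strand). Each is written 5′ to 3′ on the strand of its gene, with matches of the E2F consensus or the cell cycle homology region (CHR element) in capitals.
E2f2: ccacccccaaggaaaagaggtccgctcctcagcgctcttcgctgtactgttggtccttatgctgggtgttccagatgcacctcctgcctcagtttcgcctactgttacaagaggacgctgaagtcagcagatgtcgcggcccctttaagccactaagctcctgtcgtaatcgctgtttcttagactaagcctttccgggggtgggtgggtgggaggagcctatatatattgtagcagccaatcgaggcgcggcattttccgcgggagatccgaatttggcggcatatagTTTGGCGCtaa
E2f7: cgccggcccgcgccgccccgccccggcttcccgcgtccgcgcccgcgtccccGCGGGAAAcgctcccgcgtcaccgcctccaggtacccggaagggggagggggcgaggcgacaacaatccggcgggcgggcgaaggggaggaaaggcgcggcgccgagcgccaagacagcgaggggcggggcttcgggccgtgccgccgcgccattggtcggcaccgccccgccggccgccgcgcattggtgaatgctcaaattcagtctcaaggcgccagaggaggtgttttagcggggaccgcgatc
E2f8: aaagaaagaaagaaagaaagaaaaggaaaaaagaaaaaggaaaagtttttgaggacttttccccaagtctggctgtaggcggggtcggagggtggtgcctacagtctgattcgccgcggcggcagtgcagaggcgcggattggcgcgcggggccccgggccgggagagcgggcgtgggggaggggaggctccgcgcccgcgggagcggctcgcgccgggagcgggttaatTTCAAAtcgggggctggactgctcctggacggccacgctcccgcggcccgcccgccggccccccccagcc
Rbl1: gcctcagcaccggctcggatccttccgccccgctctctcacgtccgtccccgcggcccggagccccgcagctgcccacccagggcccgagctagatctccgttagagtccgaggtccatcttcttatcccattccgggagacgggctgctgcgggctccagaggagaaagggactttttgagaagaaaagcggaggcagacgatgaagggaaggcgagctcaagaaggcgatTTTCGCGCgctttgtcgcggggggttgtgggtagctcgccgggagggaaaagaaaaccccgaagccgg

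The E2F consensus was searched on both strands as TTTCCCGC, TTTCGCGC, TTTGCCGC and TTTGGCGC, and the CHR element, a site bound by the MuvB complex, as TTTGAA and TTCGAA. An E2F match lay in a window of 4 of the 7 matched members (57.1%), against 704 of all 27025 genes with a window (2.605%). Of the printed windows, that of E2f7 holds GCGGGAAA, the reverse strand of TTTCCCGC, 198 bases before the start. The Rbl1 window holds TTTCGCGC 18 bases before the start, and the first E2f2 window holds TTTGGCGC at base 40 after it. In E2f8 no E2F letters matched and a CHR element, TTCAAA on the printed strand, lay 20 bases before the start. The first E2f3 window, not printed, had both kinds of match. The second E2f2 window, also not printed, held the CHR letters TTTGAA 31 bases before its own start. The E2f1 window begins from a RefSeq start that lies 466 bases inside the outermost GENCODE start, so it does not cover the sequence upstream of that outer start. A CHR match lay in a window of 3 of the 7 matched members (42.9%), against 21.7% of all genes with a window. CHR letters alone are common, with matches in 19.2% of all 32851 windows. A match of letters is a description and does not show binding.

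**Figure D1:**
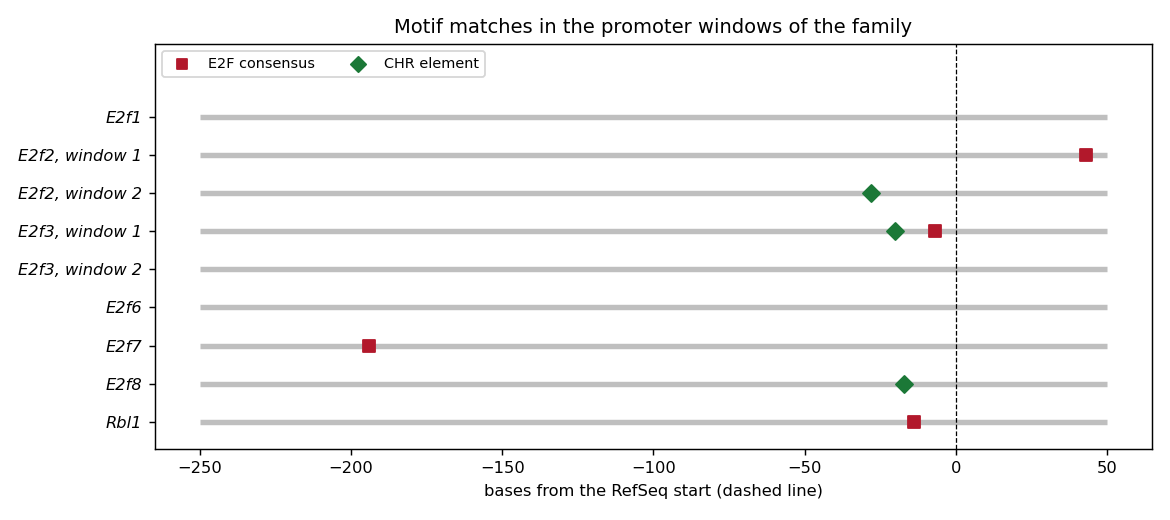
Matches of the E2F consensus (squares) and the CHR element (diamonds) in the RefSeq promoter windows of 7 members, by distance in bases from the start. Grey bars are the 300-base windows, and the E2F matches lie in E2f2, E2f3, E2f7 and Rbl1.

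Kat8 was lower in all 4 tables, with log2 fold changes between -1.96 and -1.24 in the authors' deposited table of each comparison. The direction of every fold change, Mof-depleted over control, was read from the names of the tables' groups and this sign. Kat8 RNA was thus not absent. It stood at 30.5% of control with Adriamycin and 25.7% with vehicle in knockout MEFs. In knockdown podocytes it stood at 42.3% with Adriamycin and 35.6% with vehicle. In MEFs with Adriamycin 2 members rose, 1 fell and 6 did not pass the threshold, while E2f2 had no adjusted p, against 32.7% of all tested genes called, 16.6% higher and 16.1% lower. Under vehicle 1 member rose, 5 fell and 4 did not pass, against 37.5% of genes called, 17.8% higher and 19.6% lower. In podocytes with Adriamycin 5 members rose and 2 fell, where 55.7% of tested genes were called, 27.8% higher and 27.9% lower. With vehicle 1 member rose and 1 fell, where 14.3% were called, 8.7% higher and 5.64% lower. The shares of members called with Adriamycin in MEFs and with vehicle in podocytes lay close to these backgrounds and are no result about the family. In podocytes with Adriamycin the 7 of 10 members called lay not far above 55.7%, and that count is no result about the family either.

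**Figure D2:**
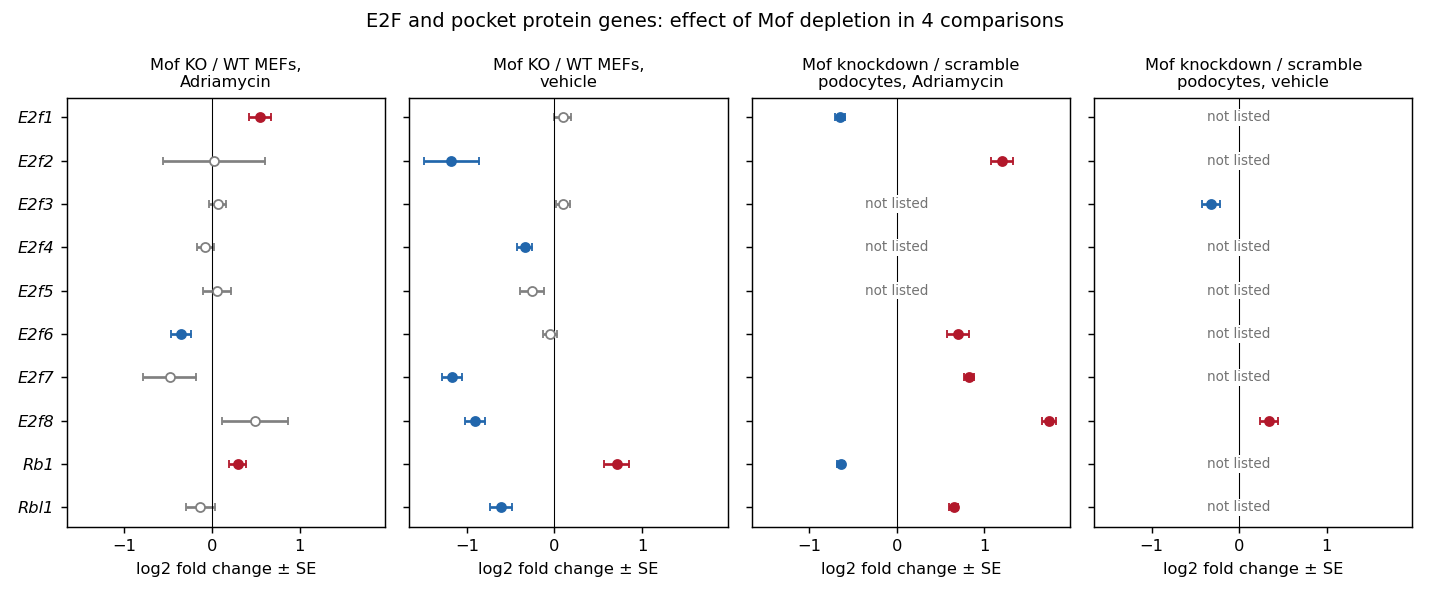
Log2 fold change of each member, Mof-depleted over control, with its SE, in the 4 comparisons. Red points rose and blue points fell at an adjusted p below 0.05, open points did not pass or were not tested, and E2f7 and E2f8 lie left of 0 in MEFs under vehicle and right of 0 in podocytes with Adriamycin.

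Markers of the labelled cell types were present as far as they could be read. All 7 fibroblast markers had mean counts of at least 535 in MEFs with vehicle and 637 with Adriamycin. In podocytes Podxl and Synpo were listed in both tables and rose with the knockdown, and Nphs1 and Wt1 were not listed. Markers of other cell types also moved in podocytes. With Adriamycin the macrophage and leukocyte markers listed were Csf1r (2.65 ± 0.18) and Cd68 (-0.47 ± 0.09) in the authors' deposited table, with implied counts summing to 711 in knockdown and 644 in scramble cells. With vehicle Csf1r alone of them was listed, at 1.15 ± 0.21 in the authors' deposited table, with implied counts of 889 in knockdown and 400.4 in scramble cells. The epithelial keratins Krt8 and Krt18 were at 0.85 ± 0.06 and 0.44 ± 0.12 with Adriamycin and at -0.35 ± 0.12 and -0.82 ± 0.15 with vehicle in the authors' deposited table of each condition. No endothelial marker was listed in either podocyte table. The part of these markers in the changes of the members in podocytes was not tested. Of 8 macrophage and leukocyte markers in MEFs, none passed with Adriamycin, where their implied counts summed to 5649 in knockout and 4102 in wild-type cells. Under vehicle 6 rose, with sums of 4490 in knockout and 2234 in wild-type cells, and no marker was at 0. Their part in the fall of E2f7, E2f8, E2f2, E2f4 and Rbl1 in that comparison was not tested.

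Among the activators, E2f1, the factor classically released from pRB, rose in knockout MEFs given the drug and fell in knockdown podocytes given it. With Adriamycin the MEF fold change of E2f1 was 0.55 ± 0.13 (SE), or 1.47-fold, in the authors' deposited table (mean count 736, adjusted p 0.000128). Under vehicle it was 0.09 ± 0.09 at a mean count of 1006 (adjusted p 0.464) in the authors' deposited table, with a 95% interval of -0.09 to 0.28. Drug-treated podocytes had E2f1 at -0.65 ± 0.06, which is 63.7% of the scramble level, in the authors' deposited table (adjusted p 3.08e-31). E2f1 thus moved in opposite directions in the drug-treated cells of each type.

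E2f2, an activator with the lowest mean count of the family in MEFs, fell in knockout MEFs under vehicle and rose in knockdown podocytes with Adriamycin. Under vehicle its MEF fold change was -1.18 ± 0.32 (44.3% of wild type) in the authors' deposited table (mean count 41.7, adjusted p 0.00101). With Adriamycin its mean count was 6.1 and its fold change 0.02 ± 0.59 in the authors' deposited table of MEFs, which gives it no adjusted p. E2f2 in podocytes with Adriamycin was 2.30-fold higher in knockdown cells (1.20 ± 0.13, mean count 284, adjusted p 2.07e-20) in the authors' deposited table. The first RefSeq window of E2f2 is the one with an E2F match after the start.

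E2f3, which encodes an activator and a shorter isoform, did not pass the threshold in MEFs. Its fold changes were 0.06 ± 0.10 with Adriamycin and 0.10 ± 0.08 with vehicle, at mean counts of 948 and 1345, in the authors' deposited table of each condition. The 95% intervals ran from -0.12 to 0.25 with Adriamycin and from -0.07 to 0.26 with vehicle. In podocytes with vehicle E2f3 fell to 80.3% of the scramble level (-0.32 ± 0.10, adjusted p 0.0176) in the authors' deposited table. With Adriamycin it was not listed.

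The pocket-dependent repressor E2f4 fell slightly in knockout MEFs under vehicle, to 78.9% of wild type (-0.34 ± 0.09, mean count 1308, adjusted p 0.000429) in the authors' deposited table. With Adriamycin E2f4 was at -0.07 ± 0.09 (adjusted p 0.576) in the authors' deposited table of MEFs. E2f5, its close relative, did not pass in MEFs, with 0.06 ± 0.16 with Adriamycin and -0.26 ± 0.14 with vehicle in the authors' deposited table of each condition. Neither gene was listed in podocytes. E2f6, the Polycomb-associated repressor, fell in knockout MEFs with Adriamycin, to 78.1% of wild type (-0.36 ± 0.11, mean count 1456, adjusted p 0.00854) in the authors' deposited table. Under vehicle E2f6 was at -0.05 ± 0.08 in the authors' deposited table (adjusted p 0.682). E2f6 in podocytes with Adriamycin rose 1.62-fold (0.70 ± 0.12, mean count 235, adjusted p 8.17e-08) in the authors' deposited table.

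The atypical repressors E2f7 and E2f8 both fell in knockout MEFs under vehicle and both rose in knockdown podocytes with Adriamycin. E2f7 fell to 44.5% of wild type in knockout MEFs under vehicle (-1.17 ± 0.12, mean count 818) in the authors' deposited table, and its adjusted p of 4.58e-22 was the smallest of the 10 members there. E2f8 fell there to 53.2% (-0.91 ± 0.11, mean count 618, adjusted p 5.03e-14) in the authors' deposited table. With Adriamycin E2f7 was at -0.48 ± 0.30 (mean count 158, adjusted p 0.222) in the authors' deposited table of MEFs. E2f8, at a mean count of 27.0, was at 0.49 ± 0.38 in the authors' deposited table (adjusted p 0.334). With Adriamycin E2f8 rose 3.33-fold in knockdown podocytes (1.73 ± 0.08, mean count 949, adjusted p 1.17e-101) in the authors' deposited table. E2f7 rose 1.77-fold (0.83 ± 0.05, mean count 2189, adjusted p 2.00e-52) in the authors' deposited table. With vehicle E2f8 rose 1.27-fold (0.34 ± 0.10, adjusted p 0.00969) in the authors' deposited table. E2f7 was not listed there. E2f8 was the sole member listed in both podocyte tables.

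The pocket protein gene Rb1 rose in knockout MEFs in both drug conditions. With Adriamycin it was 1.22-fold higher (0.29 ± 0.10, mean count 1783, adjusted p 0.0105) in the authors' deposited table. With vehicle it was 1.64-fold higher (0.71 ± 0.14, mean count 571, adjusted p 3.10e-06) in the authors' deposited table. Rb1 in podocytes with Adriamycin fell to 64.1% of the scramble level (-0.64 ± 0.04, mean count 5100, adjusted p 1.17e-51) in the authors' deposited table. Rb1 shares 408 exon bases with Lpar6 and 488 with Rcbtb2, both on the opposite strand, and whether the authors' counting used strand is not given. Lpar6 itself was at -0.22 ± 0.10 with Adriamycin and 0.09 ± 0.13 with vehicle in MEFs, and rose by 1.03 ± 0.10 in podocytes with Adriamycin, in the authors' deposited table of each condition. Rcbtb2 was at -0.20 ± 0.14 with Adriamycin and -0.27 ± 0.12 with vehicle in MEFs in the authors' deposited values. In podocytes Rcbtb2 rose by 0.25 ± 0.11 with Adriamycin and by 0.51 ± 0.15 with vehicle in the authors' deposited values. Rbl1, the gene of p107, went the same way as E2f7 and E2f8 in MEFs with vehicle and podocytes with Adriamycin. Under vehicle Rbl1 fell in knockout MEFs to 65.5% of wild type (-0.61 ± 0.12, mean count 462, adjusted p 7.82e-06) in the authors' deposited table. With Adriamycin it was at -0.13 ± 0.17 (adjusted p 0.573) in the authors' deposited table of MEFs. Rbl1 in podocytes with Adriamycin rose 1.57-fold (0.65 ± 0.05, mean count 2332, adjusted p 8.72e-34) in the authors' deposited table.

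Rbl2, the gene of p130, is the third pocket protein and no member. It was added after its values were seen, and it shares 693 exon bases with Aktip and 892 with Gm45464, both on the opposite strand. Aktip itself was at -0.16 ± 0.13 with Adriamycin and -0.28 ± 0.15 with vehicle in MEFs and at -0.36 ± 0.07 in podocytes with Adriamycin (adjusted p 4.12e-06), where Rbl2 fell too, in the authors' deposited table of each condition. In MEFs Rbl2 was at -0.10 ± 0.11 with Adriamycin and -0.26 ± 0.11 with vehicle (adjusted p 0.529 and 0.0553) in the authors' deposited table of each condition. Drug-treated podocytes had it lower: it fell by 0.97 on the log2 scale, to 51.2% of the scramble level, in the authors' deposited table. In those cells Rb1 and Rbl2 fell while Rbl1 rose.

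Group levels were worked out from the mean count and the fold change of each table, as the pair of means that give both. They carry no error of their own, and any shrinkage of the fold change draws the pair together. For E2f8 in MEFs with Adriamycin the implied mean count was 31.6 in knockout and 22.5 in wild-type cells, and with vehicle 429 in knockout and 807 in wild-type cells. The implied level of E2f8 in wild-type MEFs was thus 35.9-fold lower in the Adriamycin table than in the vehicle table, and in knockout MEFs 13.6-fold lower. Whether those tables share size factors is not given, so the ratios are a description with no test. The median ratio of Adriamycin over vehicle for 14581 genes was 1.10 in knockout and 1.13 in wild-type cells. In wild-type MEFs E2f2 was 9.54-fold, E2f7 6.15-fold, Rbl1 3.18-fold and E2f1 1.63-fold lower in the Adriamycin table, while Rb1 was 3.70-fold higher. In knockout MEFs the corresponding figures were 4.16-fold, 3.82-fold, 2.29-fold and 1.19-fold lower, and 2.77-fold higher for Rb1.

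The implied E2f8 level was 1459 in knockdown and 439 in scramble podocytes with Adriamycin, and 1277 in knockdown and 1009 in scramble podocytes with vehicle. E2f7 stood at 2799 in knockdown and 1579 in scramble podocytes with Adriamycin. Rbl1 stood at 2848 and Rb1 at 3986 in knockdown podocytes, against 1816 for Rbl1 and 6214 for Rb1 in scramble podocytes.

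**Figure D3:**
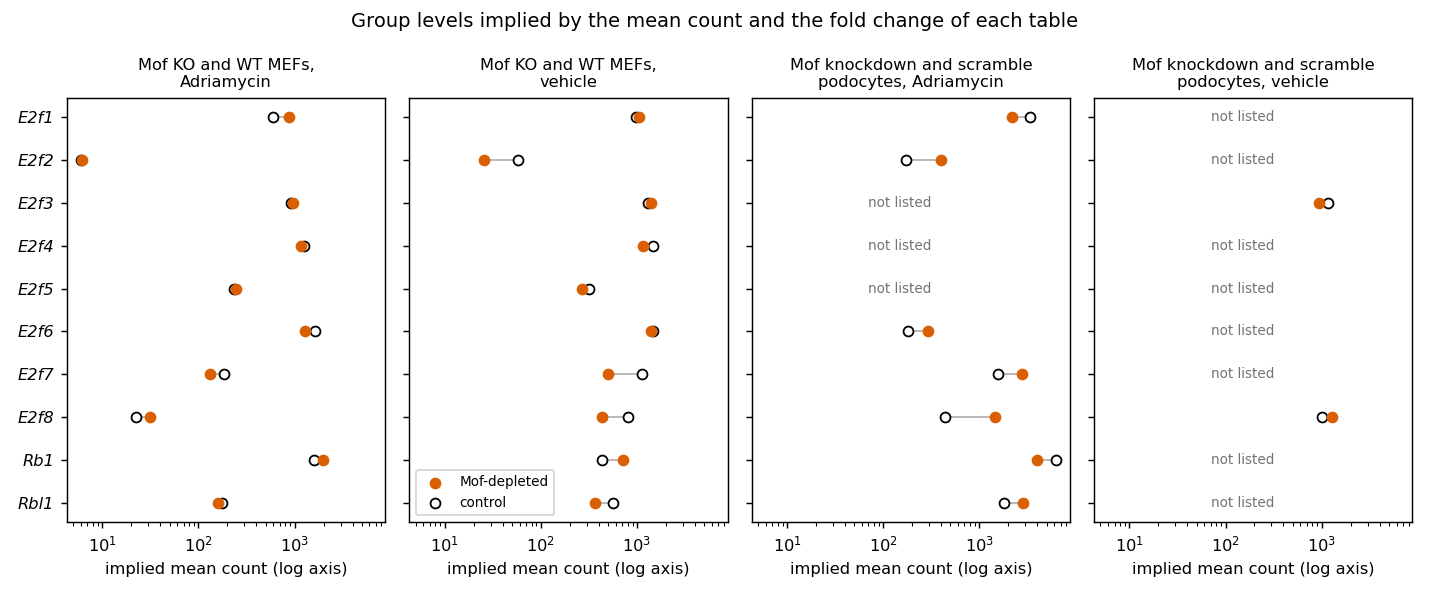
Mean normalized count of each member implied for Mof-depleted (filled) and control (open) cells in each table, on a log axis, with no error because no value per sample is given. E2f8, E2f7, E2f2 and Rbl1 sit lower in the MEF table with Adriamycin than in that with vehicle, while Rb1 sits higher.

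To set levels between genes on 1 scale, mean counts were divided by the exon length in kilobases (GENCODE M21, which may differ from the authors' annotation). With Adriamycin E2f4 was highest in MEFs at 492 counts per kilobase, followed by Rb1 at 296, E2f6 at 257, E2f1 at 233, E2f3 at 175 and E2f5 at 135. Rbl1 at 28.0, E2f7 at 17.5, E2f8 at 4.97 and E2f2 at 1.25 counts per kilobase came last, the median of tested genes being 108. Under vehicle E2f4 was again highest at 533 counts per kilobase, ahead of E2f1 at 319, E2f6 at 252, E2f3 at 248 and E2f5 at 163. E2f8 at 114, Rb1 at 94.9, E2f7 at 90.8 and Rbl1 at 77.2 lay near the median of 81.5, and E2f2 was last at 8.53 counts per kilobase. Which neighbours in these orders differ beyond the spread of samples cannot be told without values per sample.

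Whether Mof loss acted differently in drugged cells was asked with a z test on the difference of the fold changes, Adriamycin minus vehicle, with Benjamini-Hochberg adjustment over 13973 genes in MEFs. E2f8 had the largest difference among the 9 members tested, 1.40 ± 0.40 (SE, 95% interval 0.63 to 2.18, adjusted p 0.0108). For E2f1 it was 0.46 ± 0.16 (95% interval 0.15 to 0.76, adjusted p 0.0488), close to the threshold. Thus 2 of 9 members were called, both with a higher fold change with Adriamycin than with vehicle. Of all genes 7.09% were called, 3.49% higher and 3.61% lower. E2f7 differed by 0.68 ± 0.33 (adjusted p 0.204), Rbl1 by 0.48 ± 0.21 (0.157), E2f5 by 0.32 ± 0.21 (0.430) and E2f4 by 0.27 ± 0.13 (0.208), none of which passed. Rb1 at -0.42 ± 0.17 (0.115), E2f6 at -0.31 ± 0.14 (0.176) and E2f3 at -0.03 ± 0.13 (0.929) did not pass either. At an unadjusted p below 0.05 the z test gave 7 of 9 members, against 2792 of all 13973 genes. The median difference was 0.32 for the 9 members and -0.02 for all genes. E2f8 had a mean count of 27.0 with the drug, and the largest SE of any gene was 0.600 with Adriamycin and 0.710 with vehicle in the authors' deposited tables of MEFs. The part of low counts and of these ceilings in the difference was not tested.

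In podocytes the same difference could be formed for E2f8 alone. It was 1.39 ± 0.13 (95% interval 1.14 to 1.65), with an adjusted p of 7.09e-26 by the z test over 1518 genes listed in both podocyte tables, of which 63.4% were called. All of these genes had already passed the threshold in both tables. For E2f8 the difference was 1.40 ± 0.40 in MEFs and 1.39 ± 0.13 in podocytes, although the fold changes themselves lay at other levels in each cell type.

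**Figure D4:**
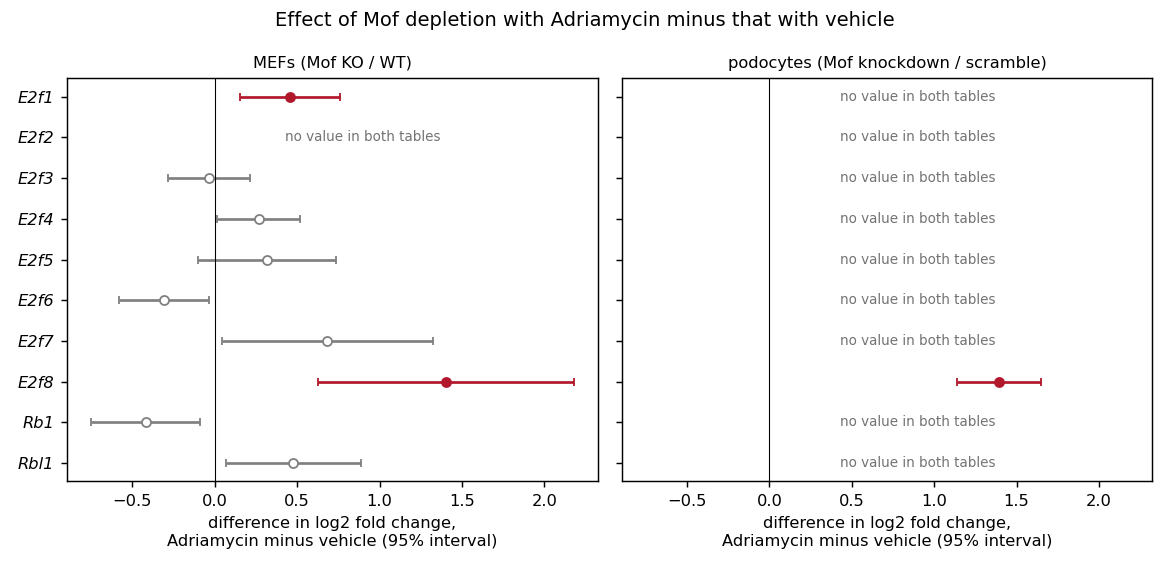
Difference of the log2 fold changes, Adriamycin minus vehicle, for each member with its 95% interval, in MEFs and in podocytes. Filled points passed an adjusted p of 0.05, and E2f8 lies at 1.40 in MEFs and 1.39 in podocytes.

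The cell types were compared by the same z test, MEFs minus podocytes within a drug condition, over the genes with values in both tables. This comparison was added after the values were seen, and the cell types also differ in how Mof was depleted and in the Adriamycin dose. Podocyte values exist only for genes that had already passed the threshold there, which favours a difference from MEFs in advance. With vehicle E2f8 differed by -1.25 ± 0.15 (adjusted p 8.24e-15) and E2f3 by 0.41 ± 0.13 (0.00418), where 55.9% of 1897 genes were called, 24.9% higher and 31% lower. With Adriamycin all 6 members with values in both tables differed, where 79.3% of 8842 genes were called, 38.8% higher and 40.5% lower, so a call there is common. They were E2f1 at 1.20 ± 0.14, Rb1 at 0.93 ± 0.10, Rbl1 at -0.78 ± 0.18, E2f6 at -1.05 ± 0.17, E2f8 at -1.24 ± 0.39 and E2f7 at -1.31 ± 0.31, with adjusted p between 4.27e-18 and 0.00207 by the z test.

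Of the 5 members lower in knockout MEFs under vehicle, 4 were higher in knockdown podocytes with Adriamycin (E2f2, E2f7, E2f8 and Rbl1) and E2f4 was not listed. These 4 are 80.0% of the 5 members lower in MEFs and 80.0% of the 5 members higher in podocytes. The pairing was not among those planned, and its sides differ in cell type, drug and way of Mof depletion at once. With Adriamycin in MEFs, E2f7, E2f8 (0.49 ± 0.38) and Rbl1 did not pass and E2f2 had no adjusted p in the authors' deposited values. Of all 3066 genes lower in MEFs under vehicle, 1536 were higher in podocytes with Adriamycin, which is 50.1% of those lower in MEFs and 32.2% of the 4776 genes higher in podocytes.

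The other genes of the pathway were counted on lists by role. The shares of all tested genes to set beside these counts are 16.6% higher and 16.1% lower in MEFs with Adriamycin, 17.8% and 19.6% in MEFs with vehicle, 27.8% and 27.9% in podocytes with Adriamycin, and 8.7% and 5.64% in podocytes with vehicle. The first held E2F partners: the DP subunits Tfdp1 and Tfdp2, the MuvB core, and the cell cycle factors B-MYB (Mybl2), Mybl1 and Foxm1. With Adriamycin 2 of its 10 members fell in MEFs and none rose (median -0.05), namely Tfdp2 (-0.84 ± 0.14) and the MuvB subunit Lin52 (-0.63 ± 0.20) in the authors' deposited table. That count is near the 16.1% of all tested genes called lower there and is no result about the list. With vehicle 6 of 10 fell and none rose (median -0.56), led by Foxm1 (-1.36 ± 0.11), Mybl2 (-1.58 ± 0.15) and Tfdp2 (-0.99 ± 0.12) in the authors' deposited table. Of this list 6 rose and 1 fell in podocytes with Adriamycin. Rbbp4, a histone-binding MuvB subunit (0.41 ± 0.05), Foxm1 (0.31 ± 0.04) and Tfdp1 (0.27 ± 0.04) rose and Tfdp2 (-0.44 ± 0.08) fell in the authors' deposited table. Rbbp4 (0.28 ± 0.10) was the single listed member of this list with vehicle in the authors' deposited table of podocytes.

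G1/S target genes of E2F, such as replication licensing factors and enzymes of nucleotide supply, fell in most cases in knockout MEFs under vehicle and rose in most cases in knockdown podocytes with Adriamycin, as E2f7, E2f8 and Rbl1 did. With Adriamycin 2 of 35 tested members rose and 6 fell in MEFs, with a median of -0.24, the median of all tested genes being -0.02. The fallers are near the 16.1% of all tested genes called lower there, and the risers are below the 16.6% called higher. These counts are no result about the list. The licensing factors Mcm7 (0.64 ± 0.14) and Cdt1 (0.83 ± 0.27) rose, and the DNA methyltransferase Dnmt1 (-0.55 ± 0.10), the reductase subunit Rrm1 (-0.73 ± 0.19) and Uhrf1 (-0.65 ± 0.23) fell in the authors' deposited table. With vehicle 32 of 36 fell and none rose (median -0.80, all tested genes 0.01), where 19.6% of genes were called lower. Uhrf1 (-1.13 ± 0.08), which recruits Dnmt1, cyclin A2 (Ccna2, -1.50 ± 0.12) and the kinase Tk1 (-1.22 ± 0.10), which salvages thymidine, led the list by p in the authors' deposited table. In podocytes with Adriamycin 28 of the 36 rose and 4 fell, where 27.8% of genes were called higher. Rrm1 (1.44 ± 0.05), Uhrf1 (1.24 ± 0.05) and Tk1 (1.71 ± 0.07) rose, while the chromatin assembly subunit Chaf1b (-1.12 ± 0.06), Gins2 (-0.90 ± 0.08) and the origin subunit Orc1 (-0.47 ± 0.07) fell in the authors' deposited table. With vehicle only the helicase subunits Mcm6 (0.40 ± 0.09) and Mcm7 (0.31 ± 0.10) of this list were listed, both higher, in the authors' deposited table of podocytes.

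G2/M genes bound by the MuvB complex all fell in knockout MEFs under vehicle. With Adriamycin 3 of 22 tested members fell and none rose (median -0.43), namely topoisomerase Top2a (-0.85 ± 0.29), the kinase Plk1 (-1.01 ± 0.40) and the kinesin Kif20a (-0.58 ± 0.23) in the authors' deposited table. That count is near the 16.1% of all tested genes called lower there and is no result about the list. With vehicle all 24 fell (median -1.31), where 19.6% of genes were called lower, led by Ccnb2 (-1.80 ± 0.11), the checkpoint kinase Bub1 (-1.76 ± 0.11) and Kif20a (-1.37 ± 0.09) in the authors' deposited table. Of the list 13 rose and 8 fell in podocytes with Adriamycin: Top2a (1.17 ± 0.05) and the proliferation marker Mki67 (1.03 ± 0.06) rose, and the motor Cenpe (-0.83 ± 0.04), Cdc20 (-0.62 ± 0.05) and cyclin B1 (Ccnb1, -0.59 ± 0.05) fell in the authors' deposited table. With vehicle 4 rose, among them cyclin B2 (Ccnb2, 0.47 ± 0.16) and Mki67 (0.45 ± 0.16, mean count 7009) in the authors' deposited table of podocytes. In MEFs with vehicle these genes fell beside E2f7, E2f8 and Rbl1. In podocytes with Adriamycin, where those 3 members rose, 27.8% of all tested genes were called higher and 27.9% lower. The 8 of 24 list genes that fell there are near that last share and are no result about the list. The part of such cell cycle genes in the change of the members was not tested.

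Cyclins, kinases and inhibitors that set the phosphorylation of pocket proteins were mixed. With Adriamycin 5 of 13 rose and 1 fell in MEFs. The inhibitors Cdkn1c (1.04 ± 0.16) and Cdkn1a (p21, 0.37 ± 0.07) and the kinase Cdk4 (0.56 ± 0.12) rose and Cdk2 (-0.76 ± 0.14) fell in the authors' deposited table. With vehicle 6 rose and 3 fell. Cdkn1a (1.16 ± 0.11), cyclin D2 (Ccnd2, 0.91 ± 0.10) and Cdkn1c (1.22 ± 0.17) rose, and Cdk2 (-0.80 ± 0.11) and the inhibitors Cdkn2c (-1.08 ± 0.17) and Cdkn2d (-0.88 ± 0.15) fell in the authors' deposited table. In podocytes with Adriamycin 10 rose and 2 fell. Cdk2 (1.41 ± 0.06), Cdk4 (1.07 ± 0.05) and Cdkn2a (0.82 ± 0.06) rose, and Ccnd2 (-0.71 ± 0.06) and Cdkn1c (-1.95 ± 0.17) fell in the authors' deposited table. With vehicle 6 rose and 1 fell, cyclin D1 (Ccnd1) at -1.60 ± 0.44 and the inhibitors Cdkn1b at 0.80 ± 0.07, Cdkn2c at 0.75 ± 0.16 and Cdkn1c at 0.87 ± 0.20 in the authors' deposited table.

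**Figure D5:**
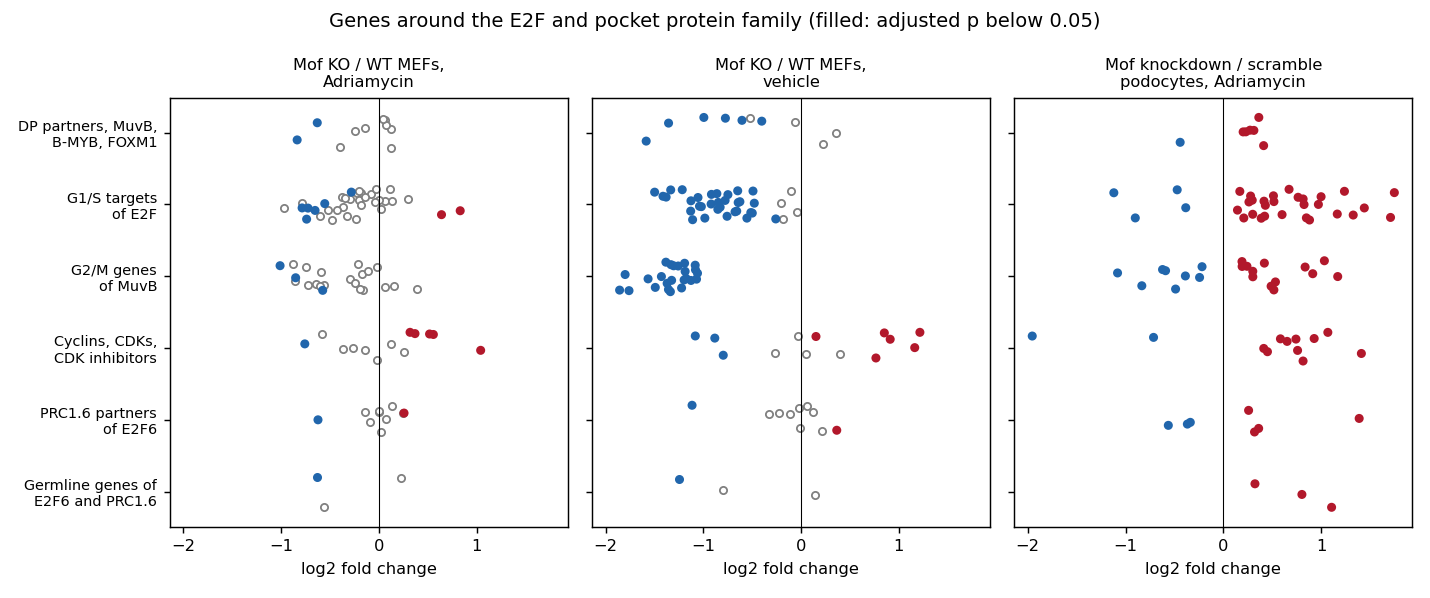
Log2 fold change of each tested gene on 6 lists around the family, in MEFs with Adriamycin, in MEFs with vehicle and in podocytes with Adriamycin. Red points rose and blue points fell at an adjusted p below 0.05, and all 24 G2/M genes and 32 of 36 G1/S genes are blue in MEFs with vehicle.

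The effect of Mof knockout also differed with the drug for genes on these lists. By the z test in MEFs, 9 of 22 G2/M genes, 7 of 35 G1/S genes and 3 of 10 partner genes differed, all positively. Of all genes 3.49% did so. A positive difference means a higher fold change with Adriamycin than with vehicle and need not be a rise. No G2/M or partner gene was called higher with Adriamycin. Examples are Cdc20 (1.47 ± 0.26) and Cenpf (1.40 ± 0.27), Mcm7 (0.90 ± 0.16) and Tyms (0.99 ± 0.21), and Foxm1 (1.40 ± 0.25) and Mybl2 (1.34 ± 0.35). Their mean counts were lower with Adriamycin than with vehicle. They were 289 and 2188 for Cdc20, 89.6 and 1226 for Cenpf, and 1439 and 2719 for Mcm7 in the authors' deposited values. For Tyms they were 239 and 795, for Foxm1 279 and 2134, and for Mybl2 41.1 and 721 in the authors' deposited values. The part of these lower counts in the differences was not tested. Of the cyclin, kinase and inhibitor list Cdk4 differed by 0.40 ± 0.13, Cdkn1a by -0.79 ± 0.13 and Ccnd2 by -0.66 ± 0.15. In podocytes the test could be made for few genes of each list. Among those called were Mki67 (0.58 ± 0.17), Bub1b (-0.80 ± 0.13), Mcm6 (-0.26 ± 0.09), Cdkn2a (0.31 ± 0.14) and Cdkn1c (-2.82 ± 0.26). Cdkn2a was close to the threshold, with an adjusted p of 0.0464 by the z test. Of all 1518 genes that could be tested in podocytes 63.4% were called, so a call there is common.

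The genes whose fold changes were nearest to those of E2f7, by Euclidean distance over the 3 tables that list it and among 7237 genes, were C2cd5 (distance 0.0676), the condensin gene Smc2 (0.103) and the lamin gene Lmnb1 (0.128). Smc2 stood, in MEFs with Adriamycin, MEFs with vehicle and podocytes with Adriamycin, at -0.51, -1.26 and 0.79 in the authors' deposited tables.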

How the data were processed

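RNA of 24 samples was sequenced after poly(A) enrichment, per the labels' protocols. TopHat2 (2.0.13), DESeq2 (1.4.1), featureCounts (1.4.5-p1) and the build GRCm38 are named in the submitters' processing notes. The deposited mean normalized count is a signal, named baseMean per the file headers, in DESeq2 the average of a comparison's samples (6 here) once counts are divided by size factors. The log2 fold change and its SE, the score (the Wald statistic, checked to equal fold change over SE) and the p-value with its adjusted p-value are the authors' own and were used as deposited. The largest SE at any mean count was 0.600 with Adriamycin and 0.710 with vehicle in MEFs, a ceiling as shrunken fold changes would give, though shrinkage is not stated. No source used here says whether the tables share size factors, so levels were not tested across them. The numbers of genes tested in podocytes, 17184 with Adriamycin and 13876 with vehicle, follow from each p, its rank and its adjusted value.

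A gene was called at an adjusted p below 0.05. Differences between tables used a z test (SciPy 1.17.1, Python 3.11.15) with Benjamini-Hochberg adjustment. It was tried on simulated data whose normal noise came from the same SEs that the test uses. That trial could not check shrinkage, the SE ceilings or low counts. Intervals are 95% normal intervals. The members, gene lists and tests were chosen with earlier results of these data known, the comparison of cell types and Rbl2 after their values were seen. From each list up to 3 genes in each direction with the smallest adjusted p were named in each table (up to 2 for differences), not all of which are printed. Exon lengths and overlaps are from GENCODE M21, promoter sequences from RefSeq. Alternatives were a threshold of 0.01, adjustment over all genes with a p or over genes whose mean count reached 100, and centring on the median fold change where the mean count reached 10. Depth per library is unknown.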

Additional observations from a re-analysis of the deposited data

Results flagged for a closer look

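The effect of Mof depletion on 7 members differed between conditions or cell types by the z test described above. E2f3, E2f6, E2f7, Rb1 and Rbl1 enter through the comparison of cell types alone. Between drug conditions, Adriamycin minus vehicle, the difference was 1.40 ± 0.40 for E2f8 and 0.46 ± 0.16 for E2f1 in MEFs, and 1.39 ± 0.13 for E2f8 in podocytes. Between cell types with Adriamycin, MEFs minus podocytes, it was 1.20 ± 0.14 for E2f1, 0.93 ± 0.10 for Rb1, -0.78 ± 0.18 for Rbl1, -1.05 ± 0.17 for E2f6, -1.24 ± 0.39 for E2f8 and -1.31 ± 0.31 for E2f7. Between cell types with vehicle it was 0.41 ± 0.13 for E2f3 and -1.25 ± 0.15 for E2f8. The comparison of cell types was chosen after the values were seen, and the cell types also differ in Adriamycin dose and way of Mof depletion. Podocyte values exist only for genes that passed the threshold there, and 79.3% of genes with Adriamycin and 55.9% with vehicle differed between cell types.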

How the results depend on the processing

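At an adjusted p threshold of 0.01 in place of 0.05, the number of members called was 1 in podocytes with vehicle, where E2f3 (adjusted p 0.0176) dropped out. The number of members whose effect differed with the drug in MEFs was then 0 by the z test, E2f8 being at an adjusted p of 0.0108 and E2f1 at 0.0488, with 7 members at an unadjusted p below 0.05. With adjustment over genes whose mean count reached 100 (in both tables) the number of members whose effect differed was 1, E2f1, since E2f8 has too few counts to enter. In MEFs with vehicle 5 members in place of 6 were called with that filter, since E2f2 (mean count 41.7) does not enter. Rb1 in MEFs with Adriamycin also missed the threshold of 0.01 (adjusted p 0.0105). Of the other values of members under these alternatives, 107 kept their direction and call and none reversed, centring and adjustment without a filter included. Much of that count was fixed in advance. A threshold or another adjustment leaves each fold change as it is, and a gene not called at 0.05 cannot be called at 0.01. Only centring could turn a direction, and the medians it took off in MEFs were -0.018 with Adriamycin and -0.015 with vehicle. At 0.01 the number of genes called was 3077 in MEFs with Adriamycin, 1182 in podocytes with vehicle and 486 for the difference between drug conditions in MEFs. No paired analysis was possible because the tables hold no value per sample, and leaving out replicates could not be run for the same reason. Adjustment without a filter and centring were not run for single podocyte tables, which list no gene above the threshold. Depth limits E2f2 and E2f8 most, at mean counts of 6.1 and 27.0 in MEFs with Adriamycin.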

Other observations

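E2F6 acts in the Polycomb complex PRC1.6, and genes of that complex were counted as well. In MEFs with Adriamycin 1 of 10 rose, Rybp (0.26 ± 0.10), and 1 fell, L3mbtl2 (-0.62 ± 0.15), in the authors' deposited table. With vehicle Epc1 rose (0.36 ± 0.10) and L3mbtl2 fell (-1.12 ± 0.13) in the authors' deposited table, again 1 of 10 each way. These counts are at or below the shares of all tested genes, 16.6% higher and 16.1% lower with Adriamycin and 17.8% and 19.6% with vehicle. In podocytes with Adriamycin 4 rose and 3 fell, among them the heterochromatin protein gene Cbx3 (1.39 ± 0.07) and Pcgf6 (-0.56 ± 0.07) in the authors' deposited table, where 27.8% of all tested genes were higher and 27.9% lower. With vehicle 3 rose and 1 fell, where 8.7% were higher and 5.64% lower. Of 11 germline genes that E2F6 and PRC1.6 repress, 3 were tested in MEFs and only Tdrkh fell, by 0.64 with Adriamycin and by 1.25 with vehicle on the log2 scale in the authors' deposited table of each condition. In podocytes with Adriamycin the meiotic cohesin genes Stag3 (0.80 ± 0.06) and Smc1b (1.11 ± 0.17) and Tdrkh (0.32 ± 0.07) rose in the authors' deposited table. They are 3 of the 11, close to the 27.8% of all tested genes called higher there, and no result about the list. None of the 11 was listed in podocytes with vehicle.

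The promoter windows of the lists differed in their letters. An E2F match lay in windows of 14 of 28 matched G1/S genes and 1 of 20 matched G2/M genes, against 2.605% of all genes with a window. A CHR match lay in windows of 5 of 28 G1/S genes (17.9%) and 16 of 20 G2/M genes (80.0%), against 21.7% of all genes. These are counts of letters in 300-base windows, with no test, and the lists were drawn from genes known for such sites.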
